A study of Mus musculus with 8 samples.

Results

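The GATA, TAL1 and LMO2 complex factors are 10 genes, Gata1, Gata2, Zfpm1, Tal1, Lyl1, Lmo2, Ldb1, Gfi1b, Klf1 and Nfe2, of which 8 were among the 11836 genes tested on these arrays. They were taken by name: every probe set of the table whose annotated symbol is exactly that of a member was read, which gave 12 probe sets, 2 for Gata2, 2 for Zfpm1 and 1 for each other gene. Those 8 had a probe set whose mean over all arrays lay above the filter on low values (log2 4.29), while Gata1 and both probe sets of Zfpm1 lay under it. By the RefSeq gene table Gata1 is on chromosome X, Lmo2 and Gfi1b on 2, Tal1 on 4, Gata2 on 6, Zfpm1, Lyl1 and Klf1 on 8, Nfe2 on 15 and Ldb1 on 19.

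GATA factors bind the letters GATA through zinc fingers, and TAL1 and LYL1 are basic helix-loop-helix proteins that bind E-boxes together with an E protein. LMO2 does not touch DNA itself and bridges these proteins, and LDB1 binds LMO2, pairs with itself and so brings distant sites together. In blood formation the complex is known for its work in stem and progenitor cells and in the red cell, platelet and mast cell lines, and GFI1B, KLF1 and NFE2 act beside it in red cell and platelet precursors.

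The Meis1 deleted group was 4 arrays of myeloid cells from C57BL/6 mice that were transformed by retroviral Hoxa9 and a floxed retroviral Meis1 and then given 2 µM 4-hydroxytamoxifen, and the Hoxa9 and Meis1 group was 4 arrays of the same kind of cells without the drug. All the cells carried an inducible Cre recombinase knocked in at Rosa26 and grew with 5 ng/ml interleukin-3 and 10% serum. The drug and Cre activity were thus present in the deleted group alone and cannot be told apart from the loss of Meis1, and the labels do not say whether the 4 samples of a group were separate cultures, so the p-values reflect how these samples vary, and that variation may be technical only. In such bulk samples a smaller share of cells with a transcript and less transcript per cell cannot be told apart.

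The cells were labelled as immortalized myeloid cells, and 11 of the 13 myeloid markers chosen for the check were tested and stood above the filter, among them Mpo, Lyz2 and Ptprc. Meis1 itself read 5.02 ± 0.07 in Meis1 deleted cells and 5.00 ± 0.05 in Hoxa9 and Meis1 arrays (SD, n = 4 each), and nothing used here says whether its probe set lies within the retroviral cDNA, so it does not check the deletion, which the labels say was seen by genomic PCR. The arrays split by their spiked bioB control into a set of 3 deleted and 2 untreated arrays and a set of 1 deleted and 2 untreated arrays. Meis1 deleted replicate 1 also stood apart in an RNA control: its 3′ minus 5′ difference for Gapdh was 0.72 on the log2 scale, against -0.07 to 0.04 on the other 7 arrays. With the bioB set as a block, without this array or with both, the calls that changed among the members and the genes named by rule were those of Tal1, Epor and Cd3e.

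The promoters of the members show which of these letters lie next to their own start sites. RefSeq sequences (GRCm38.p6, 250 bases before to 50 bases after a start) were matched for 8 of the 10 genes by symbol, with 12 start sites in all, and Lmo2 and Nfe2 had no entry. Those of Gfi1b, Tal1, Lyl1 and Klf1 are printed 5′ to 3′ because Gfi1b had the largest change, Tal1 and Lyl1 are relatives compared within arrays, and Klf1 holds a GATA motif close to an E-box. Capitals mark, on either strand, a GATA motif spelled AGATAA or spelled AGATAG or with T as its first letter (TGATAA or else TGATAG), the E-box of TAL1 (CAGATG) and the motif of MEIS proteins (TGACAG). Gfi1b is on the minus strand at chr2:28621933-28622232, Tal1 on the plus strand at chr4:115056176-115056475, Lyl1 on the plus strand at chr8:84701207-84701506 and Klf1 on the plus strand at chr8:84901732-84902031.
Gfi1b: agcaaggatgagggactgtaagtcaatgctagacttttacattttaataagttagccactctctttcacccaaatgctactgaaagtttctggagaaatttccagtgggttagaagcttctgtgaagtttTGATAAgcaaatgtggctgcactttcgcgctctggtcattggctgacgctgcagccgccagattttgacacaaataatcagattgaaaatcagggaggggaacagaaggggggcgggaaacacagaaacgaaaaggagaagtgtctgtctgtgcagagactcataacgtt
Tal1: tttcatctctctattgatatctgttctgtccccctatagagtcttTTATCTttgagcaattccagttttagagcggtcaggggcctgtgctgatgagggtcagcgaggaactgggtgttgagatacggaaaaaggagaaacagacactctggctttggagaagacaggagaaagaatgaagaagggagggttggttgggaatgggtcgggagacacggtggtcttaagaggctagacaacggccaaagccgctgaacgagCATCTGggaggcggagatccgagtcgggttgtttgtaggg
Lyl1: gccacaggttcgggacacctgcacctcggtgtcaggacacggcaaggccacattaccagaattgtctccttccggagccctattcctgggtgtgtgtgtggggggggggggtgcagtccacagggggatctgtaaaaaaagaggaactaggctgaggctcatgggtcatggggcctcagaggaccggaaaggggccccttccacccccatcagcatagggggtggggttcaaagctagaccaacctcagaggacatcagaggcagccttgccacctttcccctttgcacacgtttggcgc
Klf1: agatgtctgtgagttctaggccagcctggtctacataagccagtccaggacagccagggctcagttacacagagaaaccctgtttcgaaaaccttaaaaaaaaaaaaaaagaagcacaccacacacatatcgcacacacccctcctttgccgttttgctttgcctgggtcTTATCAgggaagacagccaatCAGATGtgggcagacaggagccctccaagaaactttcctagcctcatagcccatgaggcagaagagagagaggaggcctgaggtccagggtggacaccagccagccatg

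A GATA motif was found in 4 of the 12 member promoters, against 29.8% of all 32851 promoters in the table, and the E-box in 2 of 12, against 17.2%. Gfi1b held TGATAA starting at base -120 from the start site. The printed Tal1 promoter held TTATCT, the minus strand reading of AGATAA, at -205 and CATCTG, the minus strand reading of the E-box, at 11. The promoter at the other Tal1 start site held neither motif. An Ldb1 promoter, not printed, held TTATCT at -240 and at -200. In Klf1 the TTATCA at -80 and the CAGATG at -59 lay close together. The MEIS motif was in 0 of the 12, against 19.2% of all promoters, and the HOX motif TGATTTAT in 0 of 12, against 0.977%. In the 4 printed sequences the motifs did not overlap. These are matches of letters in a short window and not measured sites.

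Across the members, Lmo2 was higher after the deletion and Gfi1b, Nfe2, Gata2 and Lyl1 were lower. In limma's fit, 5 of the 8 tested members passed at an adjusted p of 0.05, 1 higher and 4 lower, beside 35.5% of all genes tested (18.1% higher and 17.5% lower). With 8 members, no result about the group as a whole is read from that count. By probe set, 5 of the 8 above the filter passed, beside 31.3% of all kept probe sets, and 4 of all 12 passed with no filter, beside 18.8%. The median log2 fold change of the 8 genes was -0.15, against -0.0044 over all genes. In the same 5 genes the 4 deleted and 4 untreated arrays did not overlap, as in 38.6% of all genes.

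**Figure D1:**
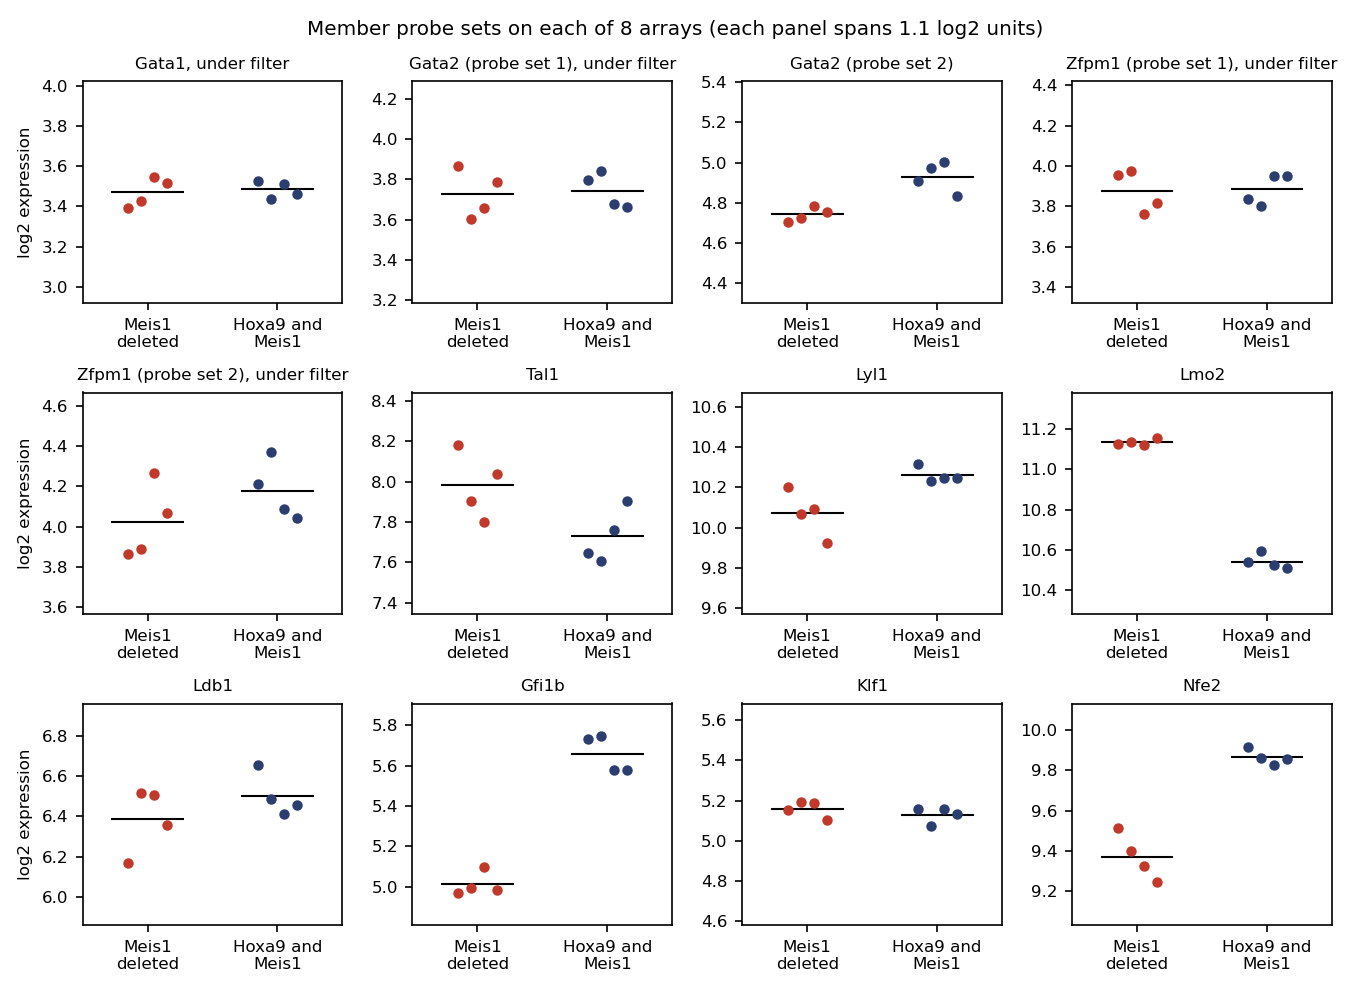
Log2 expression (vertical axis) of the 12 member probe sets on each array, with Meis1 deleted arrays in red and Hoxa9 and Meis1 arrays in blue; black lines are group means of 4 arrays and every panel spans the same number of log2 units. The groups are far apart for Lmo2, Gfi1b and Nfe2, narrowly apart for Lyl1 and the higher Gata2 probe set, and overlap in the other panels.

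The bridge protein Lmo2 rose, with the smallest standard error among the 8 tested members. It read 11.13, 11.14, 11.12 and 11.16 in the Meis1 deleted arrays, against 10.54, 10.59, 10.53 and 10.51 in the Hoxa9 and Meis1 arrays. All deleted arrays lay above all untreated ones, and the spread within either group was small. The log2 fold change was 0.59 ± 0.04 (SE), a 1.51-fold rise, with a limma adjusted p of 4.22e-06. It was 0.59 with the bioB set as a block, 0.56 and 0.64 within the sets, and 0.60 without Meis1 deleted replicate 1. Among the genes that passed, 585 rose by more.

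Ldb1, the self-pairing partner of Lmo2, read 6.17, 6.51, 6.51 and 6.36 in Meis1 deleted arrays, against 6.65, 6.49, 6.41 and 6.46 in Hoxa9 and Meis1 arrays. The groups overlapped, and Meis1 deleted replicate 1 was the lowest array. The log2 fold change of -0.12 ± 0.09 did not pass (limma adjusted p = 0.338), and its 95% interval ran from -0.31 to 0.08. Within an array, Lmo2 minus Ldb1 was 4.75 ± 0.16 in deleted cells and 4.04 ± 0.10 in untreated cells (SD, n = 4 each), a difference of 0.71. An exact two-sided permutation test over 70 assignments gave an adjusted p of 0.0286 over the 3 pairs compared in this way. That is the smallest p that 4 arrays against 4 allow, and the adjusted p was 0.0571 without Meis1 deleted replicate 4. The gap between the Lmo2 groups was wider than the whole spread of Ldb1 values. Lmo2 alone thus fixed the p over all arrays, which restates the Lmo2 rise and shows nothing about Ldb1.

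Single-stranded DNA-binding proteins of the SSBP family bind LDB1 and are known to protect it from degradation. Ssbp2 read 7.62, 7.42, 7.67 and 7.55 in Meis1 deleted arrays, against 8.46, 8.48, 8.41 and 8.39 in Hoxa9 and Meis1 arrays, with no overlap. It fell by 0.87 on the log2 scale (SE 0.06, limma adjusted p = 4.01e-06), the largest change among the partners and corepressors. Its 3 probe sets that passed the filter all fell, by 0.55 to 0.87. Ssbp4 rose by 0.19 ± 0.05 (adjusted p = 0.0127), and Ssbp3 read 0.11 ± 0.05 and did not pass. The Lmo2 relatives Lmo1 and Lmo4 went the other way from Lmo2: Lmo1 fell by 0.33 (adjusted p = 0.00682) and Lmo4 fell by 0.35 (adjusted p = 0.00705). Within the larger bioB set the calls of Lmo1 (-0.24, limma adjusted p = 0.153), Lmo4 (-0.27, 0.0985) and Ssbp4 (0.19, 0.105) were lost.

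Tal1, which pairs with E proteins on DNA, read 8.18, 7.91, 7.80 and 8.04 in Meis1 deleted arrays, against 7.65, 7.61, 7.76 and 7.90 in Hoxa9 and Meis1 arrays. The groups overlapped at a single point, since the highest untreated array lay above the lowest deleted array. The log2 fold change of 0.25 ± 0.09 (95% interval 0.04 to 0.46) did not pass over all genes (limma adjusted p = 0.0648). It passed with the bioB set as a block (0.29, adjusted p = 0.0364), with that block and without Meis1 deleted replicate 1 (0.22, adjusted p = 0.00726), without Meis1 deleted replicate 3 (0.31, adjusted p = 0.0344) and without Hoxa9 and Meis1 replicate 4 (0.31, adjusted p = 0.0384). It also passed with a gene's probe sets averaged (0.25, adjusted p = 0.0489). Tal1 has 1 probe set, so its own values did not change there and only the fit around them did. Without Meis1 deleted replicate 1 alone the log2 fold change was 0.19 (adjusted p = 0.111).

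Its relative Lyl1 read 10.20, 10.07, 10.09 and 9.93 in Meis1 deleted arrays, against 10.32, 10.23, 10.25 and 10.24 in Hoxa9 and Meis1 arrays. All deleted arrays were lower, by a narrow margin. Lyl1 fell by 0.19 (SE 0.06, limma adjusted p = 0.0392), and the call was lost when any array other than Meis1 deleted replicate 1 was left out (adjusted p 0.0675 to 0.0979) and within the larger bioB set (-0.15, adjusted p = 0.205). Without Meis1 deleted replicate 1 it fell by 0.23 (adjusted p = 0.00751). Tal1 minus Lyl1 within an array was -2.09 ± 0.18 in deleted cells and -2.53 ± 0.15 in untreated cells (SD, n = 4 each), a difference of 0.44 with an exact permutation adjusted p of 0.0286. That p was 0.0571 without Meis1 deleted replicate 1 or 4 or without Hoxa9 and Meis1 replicate 1, 2 or 3.

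Of the partners that TAL1 and LYL1 bind, the E proteins Tcf3 (-0.03 ± 0.10), Tcf12 (-0.13 ± 0.05) and Tcf4 (0.07 ± 0.08) did not pass. Cbfa2t3, a corepressor known from the TAL1 complex, fell by 0.22 (adjusted p = 0.0355), with overlapping groups. Runx1 read 8.12 ± 0.67 in Meis1 deleted cells and 8.59 ± 0.15 in Hoxa9 and Meis1 arrays and did not pass (adjusted p = 0.230). In all, 2 of the 19 partners and corepressors rose, 4 fell and 13 did not pass, beside 18.1% of all genes higher and 17.5% lower, with a median log2 fold change of -0.02. The 6 calls ranged from 1 (within the larger bioB set) to 9 (bioB block without Meis1 deleted replicate 1) over the alternatives, and became 3 without Meis1 deleted replicate 3 or without Hoxa9 and Meis1 replicate 2, 3 or 4, and 3 with the replicate block.

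**Figure D2:**
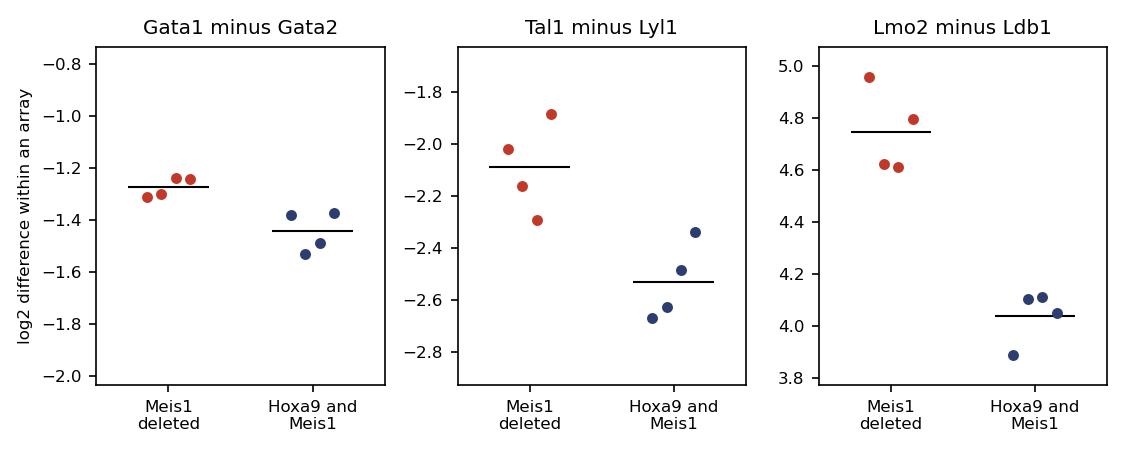
Within-array log2 differences (vertical axis) for 3 pairs of members, Meis1 deleted arrays in red and Hoxa9 and Meis1 arrays in blue, with black lines at the means of 4 arrays. In each pair the deleted arrays lie above all untreated arrays, with the largest shift (0.71) for Lmo2 minus Ldb1, where Lmo2 alone fixed the separation. Gata1 is under the filter on every array, so its panel shows Gata2's values turned over.

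Probe sets of the GATA factors read near or under the filter. Gata2, known for stem cells, early progenitors and mast cells, read 4.70, 4.73, 4.78 and 4.76 in Meis1 deleted arrays, against 4.91, 4.97, 5.00 and 4.83 in Hoxa9 and Meis1 arrays. The deleted arrays were all lower, and both groups lay not far above the filter of 4.29. It fell by 0.19 (SE 0.05, limma adjusted p = 0.0185). The call was lost without Hoxa9 and Meis1 replicate 2 (adjusted p = 0.0539) or 3 (0.0566), within either bioB set (0.0820 and 0.322) and with an offset of 64 added on the linear scale (-0.06, adjusted p = 0.0522). Its other probe set, under the filter, read 3.73 ± 0.12 in deleted and 3.74 ± 0.09 in untreated cells.

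Gata1, the main GATA factor of red cell and platelet precursors, read 3.39, 3.43, 3.55 and 3.51 in Meis1 deleted arrays, against 3.53, 3.44, 3.51 and 3.46 in Hoxa9 and Meis1 arrays. The groups overlapped, and every array lay under the filter. In the fit of all probe sets with no filter the log2 fold change was -0.01 ± 0.05 (limma adjusted p = 0.880). Gata1 minus Gata2 within an array was 0.17 higher in deleted cells, which restates the lower Gata2 values and shows nothing about Gata1.

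Zfpm1, the cofactor known as FOG1 that binds the GATA factors' amino-terminal finger, was under the filter with both probe sets. The lower read 3.88 ± 0.10 in Meis1 deleted and 3.89 ± 0.08 in Hoxa9 and Meis1 arrays, and the higher read 4.02 ± 0.19 in Meis1 deleted and 4.18 ± 0.15 in Hoxa9 and Meis1 arrays (SD, n = 4 each). With no filter their limma adjusted p values were 0.958 and 0.344. The relatives Gata4, Gata6 and Zfpm2 had values near the filter and did not pass. Among the 10 tested relatives of the members 2 rose, 2 fell and 6 did not pass, beside 18.1% and 17.5% of all genes, with a median log2 fold change of 0.01.

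Gfi1b, a zinc finger repressor that works through the histone demethylase Kdm1a and its partner Rcor1, fell more than any other member. It read 4.97, 4.99, 5.10 and 4.98 in Meis1 deleted arrays, against 5.73, 5.75, 5.58 and 5.58 in Hoxa9 and Meis1 arrays. The groups were well apart, with all arrays above the filter. It fell by 0.65 on the log2 scale (SE 0.06, limma adjusted p = 2.75e-05), to 0.638 of the untreated level, and 217 of the genes that passed fell by more. The value was -0.63 without Meis1 deleted replicate 1, -0.68 with the bioB set as a block and -0.25 with an offset of 64. With that offset Nfe2 fell by more than Gfi1b (-0.46).

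Its relative Gfi1, which serves neutrophil formation and stem cells, moved the opposite way. Gfi1 read 10.00, 9.84, 9.84 and 9.79 in Meis1 deleted arrays, against 9.04, 9.11, 9.04 and 9.10 in Hoxa9 and Meis1 arrays. It rose by 0.80 ± 0.06 (limma adjusted p = 4.68e-06). Of the shared corepressors, Kdm1a fell by 0.24 (adjusted p = 0.00703) and Hdac2 fell by 0.15 (adjusted p = 0.0434), while Rcor1 (0.17 ± 0.06) and Hdac1 (-0.08 ± 0.05) did not pass. Kdm1a's other kept probe set read -0.21 and did not pass. The Kdm1a call was lost within the larger bioB set (-0.23, limma adjusted p = 0.112). In the smaller set, which holds 1 deleted array, Kdm1a also read -0.23. The Hdac2 groups overlapped.

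Klf1, the activator of adult globin genes, read 5.15, 5.19, 5.19 and 5.10 in Meis1 deleted arrays, against 5.16, 5.07, 5.16 and 5.13 in Hoxa9 and Meis1 arrays. These values overlapped throughout. The log2 fold change was 0.03 ± 0.04 (limma adjusted p = 0.656), with a 95% interval of -0.07 to 0.13.

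Nfe2 encodes the large subunit of NF-E2, a dimer with a small MAF protein that is needed for platelet release. It read 9.51, 9.40, 9.33 and 9.25 in Meis1 deleted arrays, against 9.92, 9.86, 9.83 and 9.85 in Hoxa9 and Meis1 arrays. Every deleted array was lower than every untreated one. Nfe2 fell by 0.49 (SE 0.06, limma adjusted p = 2.10e-04), to 0.710 of the untreated level, and it fell by 0.54 without Meis1 deleted replicate 1.

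All 3 small MAF genes, the partners of Nfe2, fell as well. Maff read 5.67, 5.61, 5.54 and 5.62 in Meis1 deleted arrays, against 6.10, 6.15, 6.36 and 6.30 in Hoxa9 and Meis1 arrays, and it fell by 0.62 (limma adjusted p = 9.11e-05). Mafg fell by 0.43 (adjusted p = 1.11e-04) and Mafk fell by 0.34 (adjusted p = 0.0128). Mafk read 7.32 on Meis1 deleted replicate 1, against 6.89 to 7.02 on the other deleted arrays and 7.37 to 7.43 on untreated arrays. The Mafk call was lost within the larger bioB set (-0.30, limma adjusted p = 0.204). Bach1 and Bach2, which compete for the same MAF partners, read -0.02 ± 0.04 and 0.03 ± 0.06 and did not pass. Of this list of 5, 3 fell and 0 rose, beside 17.5% of all genes lower and 18.1% higher, with a median log2 fold change of -0.34, and 5 genes are too few to set the list apart. Nfe2l2, a stress-response relative of Nfe2 that uses the same partners, rose by 0.37 ± 0.04 (adjusted p = 1.78e-04), while its other probe set read -0.05.

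**Figure D3:**
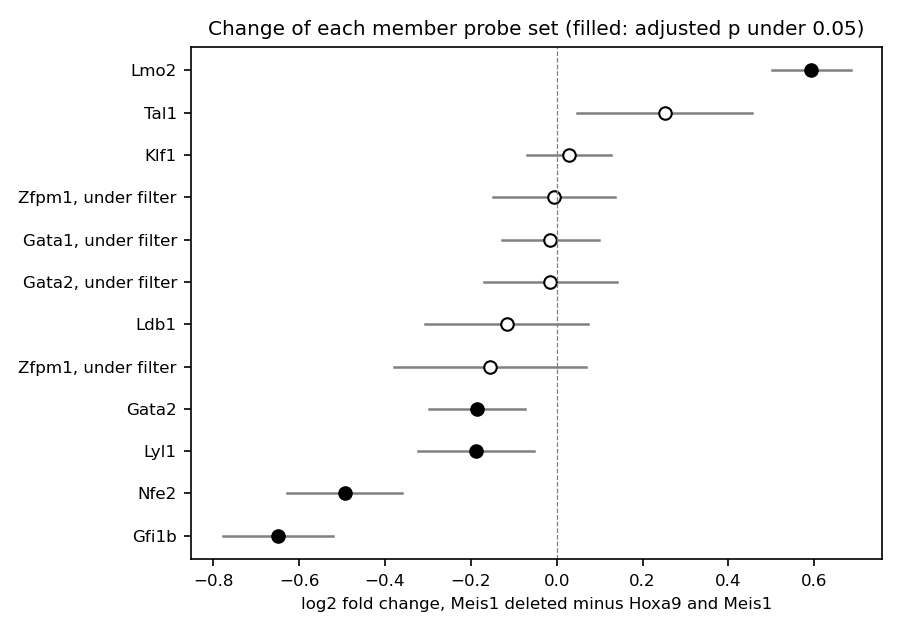
Log2 fold change (horizontal axis, Meis1 deleted minus Hoxa9 and Meis1) of each member probe set with its 95% interval from the limma fit of all probe sets with no filter; filled points are members that passed in the fit of genes. Lmo2 stands alone on the right at 0.59, and Gfi1b (-0.65) and Nfe2 (-0.49) are the farthest to the left.

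**Figure D4:**
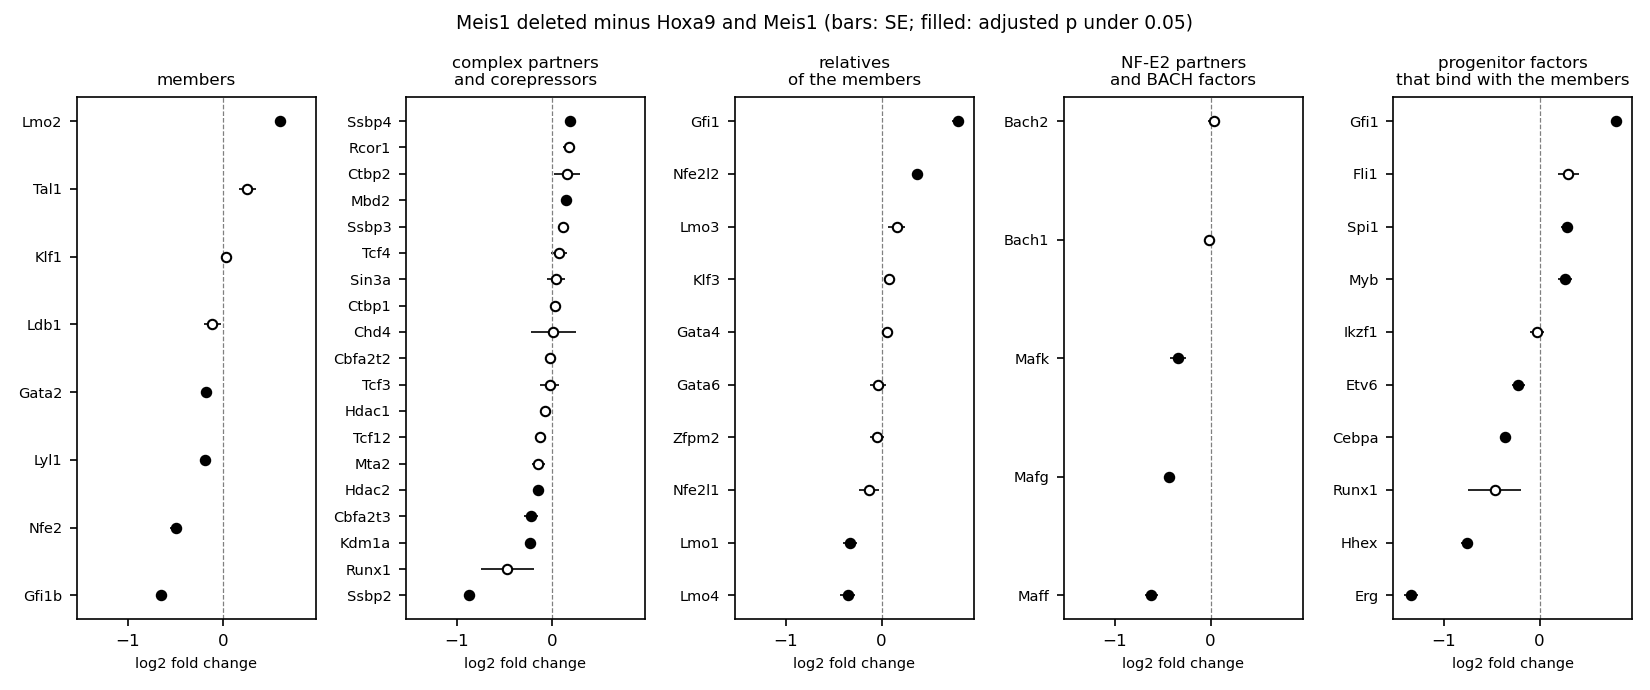
Log2 fold change (horizontal axis, Meis1 deleted minus Hoxa9 and Meis1) with its SE for the tested members and the 4 lists of partners, relatives and progenitor factors; filled points passed at an adjusted p of 0.05. The 3 small MAF genes, Ssbp2 and Erg lie left of zero, and Gfi1 lies to the right at 0.80.

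Several progenitor factors are known to bind the same regions as Tal1, Lyl1, Lmo2 and Gata2. Of the 10 tested, 3 rose, 4 fell and 3 did not pass, beside 18.1% of all genes higher and 17.5% lower, with a median log2 fold change of -0.13. Erg, an ETS factor of stem cells, read 4.94 ± 0.12 in Meis1 deleted and 6.29 ± 0.08 in Hoxa9 and Meis1 arrays and fell by 1.35 (limma adjusted p = 6.66e-07), although its second kept probe set read -0.08. Hhex, a homeobox factor of early progenitors, fell by 0.76 (adjusted p = 1.97e-05) and Cebpa fell by 0.36 (adjusted p = 8.93e-04). Besides Gfi1, the risers were Spi1 (0.28 ± 0.06, adjusted p = 0.00626), an ETS factor of myeloid cells, and Myb (0.27 ± 0.07, adjusted p = 0.0170), a factor of dividing progenitors. Fli1, the closest ETS relative of Erg, read 0.30 ± 0.11 and did not pass (adjusted p = 0.0609).

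Of 14 tested erythroid genes 2 rose and 3 fell (median -0.08), a share near the 35.5% called among all genes, so the count shows nothing particular to the list. The iron carrier Slc25a37 fell by 0.48 (adjusted p = 8.15e-04), and its 3 kept probe sets ran from -0.80 to -0.17. The haem enzyme Urod fell by 0.37 (adjusted p = 0.00112) and the carbonic anhydrase Car2 fell by 0.38 (adjusted p = 0.00169). Another haem enzyme, Uros, rose by 0.17 ± 0.06 (limma adjusted p = 0.0434), and Fech (0.10 ± 0.04) did not pass. The erythropoietin receptor Epor rose by 0.22 ± 0.07 (adjusted p = 0.0351), with overlapping groups. That call was lost with the bioB set as a block (0.20, adjusted p = 0.0518), within the larger bioB set (0.10, adjusted p = 0.395) and without Meis1 deleted replicate 2 or 4 or Hoxa9 and Meis1 replicate 3 or 4 (adjusted p 0.0809 to 0.0985). The 5 erythroid calls became 3 without Meis1 deleted replicate 2 or 4 or without Hoxa9 and Meis1 replicate 3. The red cell genes Slc4a1, Epb42, Car1 and Kel stood under the filter. The summed level of the list was log2 11.93 to 12.06 in deleted and 12.14 to 12.19 in untreated arrays, and its part in the members' changes was not tested. Added on the linear scale, it was mostly Tfrc (10.94 in deleted, 11.06 in untreated arrays) and Slc25a37 (9.68 and 10.17). Hba-a1 (5.81 and 5.72) and Alas2 (4.31 and 4.38) read far lower and did not pass.

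Among 14 tested megakaryocyte and platelet genes 5 rose and 2 fell (median -0.01), beside 18.1% of all genes higher and 17.5% lower. The chemokines Pf4 (3.84 ± 0.06, adjusted p = 1.70e-10) and Ppbp (3.44 ± 0.09, adjusted p = 5.88e-09) rose most, and Plek, a signalling protein of platelets and myeloid cells, rose by 0.70 ± 0.05. Vwf, which tethers platelets to damaged vessel walls, read 4.77 to 5.10 in deleted arrays and 4.00 to 4.08, under the filter, in untreated arrays. It thus passed the filter only through the deleted arrays, and the size of its call (0.87) rests on untreated values under the filter. The platelet integrin chain Itgb3 fell by 0.28 (adjusted p = 0.0129) and the thrombin receptor F2rl2 fell by 0.31 (adjusted p = 9.24e-04). The platelet receptor genes Gp5, Gp6, Gp9 and Clec1b did not pass and read between -0.05 and 0.01, and Gp1bb stood under the filter. The summed level was log2 12.15 to 12.27 in deleted and 10.98 to 11.01 in untreated arrays, with its part in the members' changes not tested. Levels were added on the linear scale, so this sum does not stand for the list as a whole. It was mostly Plek (11.20), Pf4 (10.27) and Ppbp (9.43) in deleted arrays and mostly Plek (10.50) in untreated arrays.

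In the mast cell and basophil list 1 of 6 tested genes rose and 1 fell (median -0.02), a share near that of all genes: the basophil protease Mcpt8 fell by 0.74 (adjusted p = 0.00144), and Ms4a2, a chain of the immunoglobulin E receptor, rose by 0.20 ± 0.07 (adjusted p = 0.0435), although its other kept probe set read -0.10. The 2 calls became 1 when any array among Meis1 deleted replicates 2, 3 and 4 and Hoxa9 and Meis1 replicates 1, 2 and 4 was left out. The mast cell genes Cpa3, Fcer1a and Cma1 stood under the filter, and the summed level was log2 9.06 to 9.42 in deleted and 9.35 to 9.42 in untreated arrays. None of the 6 eosinophil genes on the array passed the filter, with summed levels of 6.50 to 6.54 in deleted and 6.45 to 6.52 in untreated arrays. A sum grows with the number of genes added, so it cannot be set against the filter. Of the 11 tested myeloid markers 5 rose and 4 fell (median 0.21), beside 18.1% of all genes higher and 17.5% lower. The risers were led by Csf3r (1.04 ± 0.08) and Lyz2 (0.72 ± 0.04). Cd33 fell by 0.96, Elane by 0.50, Cebpa by 0.36 and Prtn3 by 0.12.

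**Figure D5:**
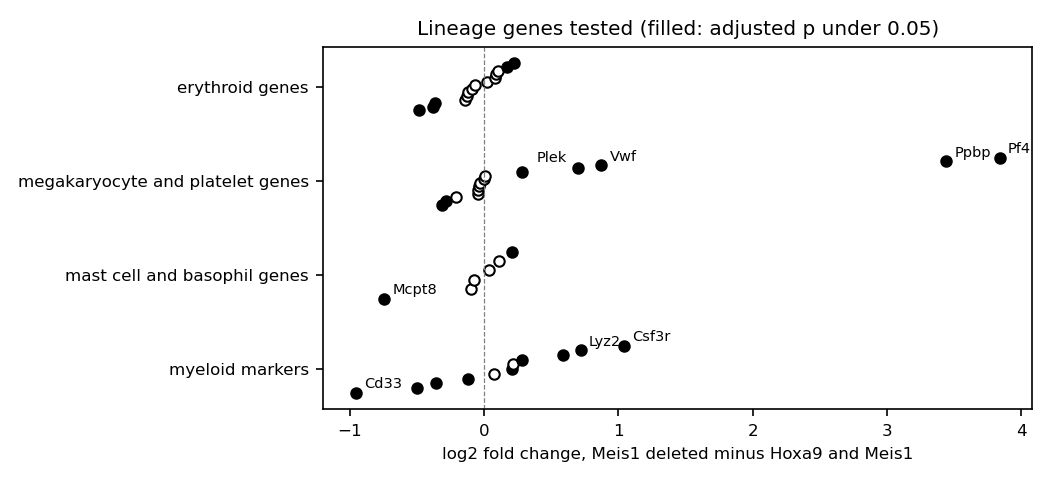
Log2 fold change (horizontal axis, Meis1 deleted minus Hoxa9 and Meis1) of each tested gene in 4 lineage lists; filled points passed at an adjusted p of 0.05. Pf4 (3.84) and Ppbp (3.44) stand far from the other platelet genes, and the erythroid genes lie between -0.48 and 0.22.

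Over the 8 arrays the genes most like Lmo2 were Usp18, Ifit3 and Tlr7, each with a Pearson correlation of 0.999, and Usp18 averaged 3.71, under the filter, in untreated arrays. Those most like Gfi1b were Abhd6 (0.993), Kti12 (0.992) and Zfp36l2 (0.991). The 8 points share the difference between the groups, and these correlations are a description only.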

How the data were processed

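Gene expression was measured on 8 one-colour arrays, with labelled RNA made from 100 ng of total RNA each. Per probe set, the authors deposited expression on the log2 scale (2.65 to 13.2). Judged from the values alone, they were normalized between arrays before deposit, since the arrays' medians lay within 4.69 to 4.74. MAS5 is named, per the submitters' processing notes, with no role. The sources used here do not give how probes were summarised. No detection calls were used. Array number limits the precision.

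Of 45141 probe sets, 104 were controls. GEO's platform annotation gave 1 symbol to 28898 of the rest and several to 551, and 15588 were unnamed. The lowest 40% by mean over all arrays were left out, which kept 27022. A limma 3.58.1 model (R 4.3.3) was fitted to all kept probe sets, the highest probe set stood for its gene, and p-values were adjusted by Benjamini-Hochberg over 11836 genes. Fold changes have Meis1 deleted on top. The 3 member pairs were compared by exact permutation tests. The procedure was also tested on simulated data. Alternatives changed the filter, the offset, the scaling, the moderation, the blocks and the arrays included.

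The members, lists, tests and alternatives were chosen with earlier results of these data known. Named genes were all members, up to 4 genes of each of the 12 lists with the smallest p, the 3 genes most correlated with the members of highest and lowest change, and Meis1 and Hoxa9. Other genes were named after their values were seen. Python 3.11.15 and matplotlib 3.10.9 drew the plots.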

Additional observations from a re-analysis of the deposited data

Results flagged for a closer look

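Single arrays that lay far from the other 3 of their group were looked for among 124 groups of 4 values, and 12 were found, where chance gives about 1 in 20. Among the members, Hoxa9 and Meis1 replicate 1 was high for Lyl1 (10.3).

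Among Meis1 deleted arrays, replicate 1 was low for Hoxa9 (8.95, against 9.97 to 10.07) and Cd79a (4.28) and high for Cd4 (4.83). Replicate 2 was high for Lyz2 (12.8), and replicate 3 was low for Usp18 (8.13) and high for Hdc (4.39).

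Among Hoxa9 and Meis1 arrays, replicate 1 was low for Ssbp4 (5.55), replicate 2 low for Mcpt8 (7.62), replicate 3 high for Slc25a37 (10.3) and low for Plek (10.5), and replicate 4 high for Kdm1a (10.1).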

How the results depend on the processing

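The directions of Lmo2, Gfi1b, Nfe2, Gata2 and Lyl1 held under every alternative in which they were tested, and Lmo2, Gfi1b and Nfe2 passed in each. With a stricter filter that removed the lowest 60%, 3 of 5 tested members were called, beside 45.9% of all genes tested. Gata2, Gfi1b and Klf1 were no longer tested there. Within the larger bioB set 3 of 8 members were called, beside 17.9% of all genes. With each array left out 3 to 5 were called, beside 28.9% to 39.5%. With the probe sets averaged (37.8% of all genes) and with the bioB block (35.8%) 6 members were called, and there Tal1 passed. Genes called numbered 2114 and 2158 within the bioB sets, where fewer arrays were tested, 8450 of 27022 probe sets when each was taken alone, 3426 to 4673 with each array left out, and 4474 with the moderation over 1 probe set per gene, which was added after seeing the data, as was the bioB block without Meis1 deleted replicate 1. Among member probe sets 4 passed with no filter, where Lyl1 did not (adjusted p = 0.0563).

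The differences within pairs kept their sign. Gata1 minus Gata2 was 0.14 to 0.19 with each array left out, 0.17 and 0.19 within the bioB sets and 0.0853 with the mean of probe sets (adjusted p = 0.257). Tal1 minus Lyl1 was 0.37 to 0.51 with each array left out and 0.49 and 0.53 within the sets, and Lmo2 minus Ldb1 was 0.64 to 0.75, and 0.74 and 0.72. The exact p cannot pass within the sets (0.1 and 0.333 at best), and with each array left out its adjusted value ran from 0.0286 to 0.0571.

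Deviations of same-numbered arrays of the groups correlated at 0.03, 0.22, -0.13 and 0.29 for numbers 1 to 4. Arrays with different numbers ran from -0.34 to 0.34. So few correlations cannot tell whether equal numbers mark pairs, and the main fit took the arrays as unpaired. With the replicate block 3906 genes and 5 members were called, and the pair differences were 0.17, 0.44 and 0.71, each with an exact sign-flip p of 0.125, the smallest that 4 pairs allow. Of 1069 values under alternatives for the 47 other genes named by the rule, 1024 stayed on the same side of the threshold, 43 lost and 2 gained the call, and 0 called values changed sign.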

Other observations

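Markers of B, T and endothelial cells were checked as well. Of 7 B cell markers 2 were tested and 0 passed (median -0.05), with summed log2 levels of 6.58 to 6.79 in Meis1 deleted and 6.78 to 6.84 in Hoxa9 and Meis1 arrays, and Ebf1, Pax5 and Cd79b stood under the filter. Of 8 T cell markers 3 were tested and 0 passed (median 0.07), with summed levels of 7.39 to 7.45 in deleted and 7.33 to 7.40 in untreated arrays. Of 8 endothelial markers 3 were tested and 1, the adhesion gene Pecam1, fell by 0.38 (adjusted p = 0.0174). Cdh5, Tek, Tie1 and Emcn, which mark endothelium more narrowly, stood under the filter, with summed levels of the list of 8.25 to 8.52 in deleted and 8.64 to 8.67 in untreated arrays. Each sum adds all of a list's genes on the array, also those under the filter, so it cannot be set against the filter.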
